A study of Mus musculus with 12 samples.

Results

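The 39 genes described here are the mouse genes of the unfolded protein response and the integrated stress response, chosen by symbol as a module, and all 39 were found among the 53341 genes of the deposited table. Each of the 39 also passed the filter on low values, 3 or more of 12 libraries with 10 or more normalized counts, as did 18139 genes in all. A normalized count is the authors' read count of a gene after scaling between libraries. The cells were cultured fibroblast-like synoviocytes, which line the joint cavity and secrete its matrix and lubricant, from mice labelled SoxC, and the series asks which parts of their response to tumour necrosis factor (TNF) depend on the SOXC family of transcription factors (Sox4, Sox11, Sox12). RNA with poly(A) tails came from 4 groups of 3 libraries numbered 1 to 3. Control cells received the adenovirus Ade5CMV-eGFP, and control_TNF cells received it together with recombinant human TNF at 10 ng/mL for 16 h. SoxC_KO cells received Ade5CMV-Cre, which carries the recombinase meant to delete the SOXC genes, and SoxC_KO_TNF cells received that virus and the same TNF. All 4 groups therefore carried an adenovirus driven by the CMV promoter, and the sources used here give no group without virus, nor the animals or cultures behind each library. A p-value here therefore reflects only how far libraries differ, for which the source may be technical.

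Secreted and membrane proteins fold in the endoplasmic reticulum (ER). When unfolded proteins pile up there, the sensors PERK (gene Eif2ak3), IRE1 (Ern1) and ATF6 start the unfolded protein response: ATF6 and the spliced form of XBP1 switch on chaperones and degradation factors, and PERK slows translation. The kinases of the integrated stress response, of which PERK is one, act through the translation factor eIF2 and raise ATF4, which drives CHOP (Ddit3), Trib3 and genes of amino acid supply. Fibroblasts that secrete collagen keep a large folding machinery, and TNF acts mainly through NF-kB.

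The normalized totals were 19.6 to 23.1 M per library, from a rough estimate of 8.14 to 13.7 M read pairs. Fibroblast markers were high in every library, with a sum over 15 genes of 302982 to 839558 normalized counts. The 4 libraries numbered 3, 1 of each group, had the 4 highest scores on the first principal component, which held 51.6% of the variance. Their scores spread from 28.5 to 119.7, and control_TNF replicate 1, at 6.13, lay between them and the other 7 libraries, at -24.9 or less. Liver transcripts marked 2 libraries: the albumin gene Alb reached 382 normalized counts in control_TNF replicate 2 and 2689.8 in SoxC_KO_TNF replicate 1, and stayed at or under 7.54 in the other 10. The fibrinogen gene Fgb was at 21.4 and 101 in these and listed at 0 elsewhere. The sum of 10 liver markers did not single out control_TNF replicate 2 (4172, against 2150.2 to 8133 over all libraries), since Hp, at 2091 to 5867 in every library, made up most of it. Counts of Sox4 in the 3 control libraries were 4238, 4143 and 1857, against 1432, 1433 and 548 in SoxC_KO. They were 1697, 3646 and 1625 in control_TNF against 1020.1, 1086 and 601 in SoxC_KO_TNF. The knockout libraries lay below the controls in both settings, but no SOXC gene passed adjustment over all genes (limma, lowest adjusted p = 0.997), and reads outside a deleted stretch would check nothing. The TNF response was present: of 10 TNF target genes kept as a check, 4 rose in control cells and 6 in knockout cells, none fell, and the chemokine gene Ccl5 went from 191 to 279 in control to 1878 to 2815 in control_TNF.

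Some promoters of these genes carry letters by which the pathway is known, and others hold none of those searched. Below are the members that hold the ER stress element used by ATF6 and XBP1, and those with the element of ATF4 and its partners. Promoter windows of 300 bases, from 250 before to 50 after the RefSeq start site (GRCm38.p6, the assembly behind mm10), were at hand for 35 of the 39 genes. The windows of Nupr1, Psat1, Mthfd2 and Slc3a2 lay kilobases from the 5′ end of the deposited gene. Both strands were searched. The ER stress element, CCAAT and CCACG with 9 bases of any kind between them, stood in 8 of 35 member promoters (22.9%) against 31 of 20049 promoters in all (0.155%). Its shorter form, ATTGG and CCACG with 1 base between them, which has the CCACG letters in common with the long form, stood in 2 of 35 (5.71%, against 0.0449%). Since the members were chosen as known genes of this pathway, these shares are a description and not a test. The matches are written 5′ to 3′ on the strand that carries the motif, with the fixed letters in capitals.
Hspa5: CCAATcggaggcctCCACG
Hsp90b1, upstream copy: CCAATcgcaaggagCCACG
Hsp90b1, second copy on the other strand: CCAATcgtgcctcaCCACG
Calr, other strand: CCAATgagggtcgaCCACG
Canx: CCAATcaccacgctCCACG
Pdia6: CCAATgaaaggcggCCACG
Dnajc3: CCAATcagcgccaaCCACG
Creld2, other strand: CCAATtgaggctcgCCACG
Syvn1: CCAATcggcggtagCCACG
Dnajb11, short form: ATTGGcCCACG
Herpud1, short form: ATTGGgCCACG

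The carriers of the long element were 7 genes of ER chaperones and folding plus Syvn1, which encodes a ubiquitin ligase of ER-associated degradation. The ATF4 type element TGATGNAA stood in 5 of 35 windows (14.3%) against 3.77% of all promoters, in Nupr1, Herpud1, Trib3, Chac1 and Asns. The cyclic AMP type element TGACGTCA stood in 1 of 35 (2.86%, against 2.26%), Ppp1r15a. A TGACGTGG element of the XBP1 type stood in none of 35 (0.663% of all promoters). The window of Ddit3 held none of these letters. A match is a string of letters and was not tested as a binding site, and a window without one says nothing of the factor.

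Whole windows are shown for 4 genes on which the results turn, the chaperone gene Hsp90b1 and the stress genes Trib3, Ppp1r15a and Ddit3, each on the strand of its gene with motif letters of either strand in capitals.
Hsp90b1, chr10:86705395-86705694, minus strand, 2 ER stress elements: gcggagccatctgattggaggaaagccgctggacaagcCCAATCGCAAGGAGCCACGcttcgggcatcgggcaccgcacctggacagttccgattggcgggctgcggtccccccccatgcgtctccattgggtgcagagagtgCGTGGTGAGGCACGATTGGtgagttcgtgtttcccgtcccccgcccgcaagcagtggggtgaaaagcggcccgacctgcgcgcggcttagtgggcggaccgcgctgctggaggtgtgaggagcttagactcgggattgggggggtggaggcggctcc
Trib3, chr2:152344011-152344310, minus strand, 1 ATF4 type element read on the other strand: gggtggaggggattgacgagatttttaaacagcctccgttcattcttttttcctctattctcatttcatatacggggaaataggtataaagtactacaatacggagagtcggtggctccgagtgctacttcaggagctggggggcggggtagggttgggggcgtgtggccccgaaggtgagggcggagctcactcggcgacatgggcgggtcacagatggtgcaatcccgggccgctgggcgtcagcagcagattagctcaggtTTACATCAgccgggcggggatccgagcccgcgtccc
Ppp1r15a, chr7:45526219-45526518, minus strand, 1 cyclic AMP type element: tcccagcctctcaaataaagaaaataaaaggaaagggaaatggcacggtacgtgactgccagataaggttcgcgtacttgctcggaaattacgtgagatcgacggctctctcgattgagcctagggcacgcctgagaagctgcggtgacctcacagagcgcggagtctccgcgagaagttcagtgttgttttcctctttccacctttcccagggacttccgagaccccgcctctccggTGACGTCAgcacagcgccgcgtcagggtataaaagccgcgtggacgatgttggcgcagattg
Ddit3, chr10:127290543-127290842, plus strand, none of the motifs found: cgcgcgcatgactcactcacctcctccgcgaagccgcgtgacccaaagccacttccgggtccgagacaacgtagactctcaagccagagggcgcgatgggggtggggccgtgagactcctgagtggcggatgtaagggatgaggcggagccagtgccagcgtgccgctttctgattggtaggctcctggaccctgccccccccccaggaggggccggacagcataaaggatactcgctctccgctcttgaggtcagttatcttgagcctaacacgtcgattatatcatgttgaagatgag

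Levels between genes were compared per kb of the longest annotated transcript. Calr, a calcium-binding lectin chaperone, was the highest member with a mean of 19048 normalized counts per kb. Pdia3, a disulphide isomerase, followed with 10270.0, then Hsp90b1 with 8987 and Hspa5, the chaperone BiP that also holds the sensors inactive, with 7008. The transcription factor Cebpb came next with 5393. The 3 sensors ranked between 35 and 38 of 39, at 219 per kb for Eif2ak3, 207 for Atf6 and 168 for Ern1, and the lipoprotein receptor Vldlr, a target of ATF4, was last with 69.1. The ratio of the highest to the lowest library ran from 1.23 for Hspa5 to 4.20 for Ddit3.

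The first question was whether TNF moved these genes. None of the 39 passed adjustment over all genes (limma, Benjamini-Hochberg) in control cells, where 58 of 18139 genes did (0.32%), and none in knockout cells, where 53 did (0.292%). At an unadjusted p under 0.05 the counts were 0 in control cells and 2 in knockout cells, Atf5 and Mthfd2, against 4.21% and 7.38% of all genes. The median log2 difference of the 39 was 0.02 in control cells and -0.12 in knockout cells, beside medians of -0.02 and -0.01 over all genes tested. Without the 4 libraries numbered 3, none of the 39 passed in either comparison, against 1.47% and 1.03% of all genes. With the replicate number as a block, which the pairing of same-numbered libraries allows, none passed in control cells (1.71% of all genes) and 1, Trib3, in knockout cells (adjusted p = 0.0457, 2.78% of all genes).

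The sensors came first in the order of roles. Ern1 (chromosome 11, 106394650 to 106487852, mm10) was 1146, 1205 and 735 in control and 893, 1712 and 904 in control_TNF. It was 1079.6, 1063 and 791 in SoxC_KO and 1765, 1492 and 1250.1 in SoxC_KO_TNF. The control groups overlapped, while each knockout library with TNF lay above each one without it. The log2 difference was 0.15 (SE 0.30) in control cells and 0.62 (SE 0.30, limma adjusted p = 0.702) in knockout cells. Non-overlap of that direction held for 6.43% of all genes. With the length and GC trend removed, a step added after the data were seen, and the replicate number as a block, Ern1 passed in knockout cells (0.58, limma adjusted p = 0.00932, 5.51% of all genes). On average over both genotypes it passed with the trend removed alone (0.46, limma adjusted p = 0.0311, 3.06% of all genes). Atf6 (chromosome 1, 170704674 to 170867771) was 1763, 1861 and 1042 in control, 1110.5, 1997 and 1123 in control_TNF, 1400.3, 1695 and 898 in SoxC_KO and 2058, 1655 and 1401 in SoxC_KO_TNF. Both pairs of groups overlapped, with log2 differences of -0.15 and 0.39 (SE 0.33 each). For Eif2ak3 (chromosome 6, 70844515 to 70905245) the differences were -0.03 and 0.27 (SE 0.35 each), with overlap in both.

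Among the transcription factors, Ddit3, whose product CHOP promotes cell death under lasting stress, was 1502, 1655 and 4874 in control and 1941, 1347 and 5479.6 in control_TNF. In knockout cells it was 1953, 1687 and 5662 without TNF and 1418, 1706 and 4478 with it. In each group the library numbered 3 was high and the other 2 were close to each other, so the groups overlapped throughout. The log2 difference with TNF in control cells was 0.08, with a 95% interval of -1.40 to 1.56. With the replicate number as a block it was the same size with an SE of 0.16 in place of 0.68. Atf4 (chromosome 15, 80255184 to 80257540), the central factor of the integrated stress response, was 3286, 3370.0 and 5130.3 in control and 4131, 3333 and 5195 in control_TNF, and 3950.2, 3578 and 5491 in SoxC_KO against 2533, 3622 and 4610.1 in SoxC_KO_TNF. Its groups overlapped, with log2 differences of 0.11 and -0.29 (SE 0.28 each).

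Atf5, a related factor tied to mitochondrial stress, was 5333, 4849.8 and 9989 in SoxC_KO and 3090.3, 4488 and 4351 in SoxC_KO_TNF. These groups did not overlap, the TNF libraries being lower, as for 6.4% of all genes, and the log2 difference was -0.70 (SE 0.30, limma adjusted p = 0.639). SoxC_KO replicate 3 was the high library, and without the libraries numbered 3 the difference was -0.45 (limma adjusted p = 0.568). In control cells the difference was 0.06 and the groups overlapped. Cebpb, an inflammatory factor that pairs with CHOP, was 6636, 5705 and 7185 in control and 13095, 6203 and 9790.2 in control_TNF. Replicate 1 was the high library with TNF and replicate 2 lay inside the control range (log2 difference 0.52, SE 0.32, limma adjusted p = 0.998). In knockout cells the Cebpb difference was -0.24. Xbp1 was lower with TNF in each of the 6 number-matched pairs of libraries, but by small steps, with log2 differences of -0.07 and -0.24 (SE 0.18 each). Sesn2, Psat1 and Mthfd2 were also lower in 6 of 6 pairs, and no member was higher in 6 of 6, where 5.33% of all genes were lower and 4.91% higher.

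Of the chaperones, Hspa5 had the narrowest range over the 12 libraries, and Dnajb9, Sdf2l1 and Hsp90b1 the widest, with the highest library 2.60, 2.56 and 2.41 times the lowest. Hspa5 (chromosome 2, 34771970 to 34777547) was 24644, 25422 and 25083 in control, 26341, 25160.1 and 25788 in control_TNF, 27583, 27056 and 23883 in SoxC_KO and 27569, 27728 and 22542 in SoxC_KO_TNF. The groups overlapped. The log2 difference with TNF was 0.04 in control cells (95% interval -0.27 to 0.35) and -0.02 in knockout cells (-0.33 to 0.29), so a rise above 0.35 lay outside both intervals. Dnajb9, a J-protein that hands IRE1 back to BiP, was 1099, 1352 and 589 in SoxC_KO and 1391, 1394 and 1535 in SoxC_KO_TNF. These did not overlap (log2 difference 0.59, SE 0.27, limma adjusted p = 0.682), SoxC_KO replicate 3 being the low library, and without the libraries numbered 3 the difference was 0.19. Pdia6, another disulphide isomerase, had the smallest p of the chaperones in control cells (log2 difference 0.17, SE 0.15). Over the 14 genes of chaperones and folding the differences with TNF ran from -0.26 to 0.37 in control cells and from -0.28 to 0.59 in knockout cells.

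Of the genes of ER-associated degradation, Herpud1, a membrane adaptor of the retrotranslocation complex, was 1532, 1699 and 1460.5 in control and 1434, 1352 and 1510.0 in control_TNF (log2 difference -0.13, SE 0.17). It overlapped between groups in knockout cells too (-0.19). Of the feedback regulators, Trib3 (chromosome 2, 152337422 to 152344032), a pseudokinase that restrains ATF4 and CHOP, was 504, 441 and 878 in SoxC_KO and 291, 345 and 475 in SoxC_KO_TNF. For each number the library with TNF was lower, although the groups overlapped. The log2 difference was -0.68 (SE 0.35, limma adjusted p = 0.738). With the replicate number as a block the SE was 0.16 and Trib3 passed, the 1 member to do so. Without the libraries numbered 3 it did not pass (log2 difference -0.57, adjusted p = 0.356). In control cells the Trib3 difference was 0.02. The difference between the 2 responses was -0.70 (SE 0.49, limma adjusted p = 0.884). Ppp1r15a, which encodes the phosphatase subunit GADD34 that restarts translation, had differences of 0.08 and 0.04 (SE 0.50 each).

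The 7 genes of amino acid and one-carbon supply all had negative differences with TNF in knockout cells, with a median of -0.17. In control cells 5 of 7 did, with a median of -0.21. None of the 7 passed. Of all 18139 genes tested, 9229 were negative in knockout cells and 9458 in control cells. Mthfd2 (chromosome 6, 83305691 to 83325908), a mitochondrial enzyme of the folate cycle, was 1280.4, 1303 and 1342 in control and 1127, 1066 and 1178 in control_TNF. In knockout cells it was 1390.1, 1367 and 1462 without TNF and 1102, 1189.7 and 1051 with it. All 6 libraries with TNF lay below all 6 without it, which held for 0.943% of all genes (1.48% in the other direction). The average log2 difference was -0.28 (SE 0.11, limma adjusted p = 0.426), where 1.17% of all genes passed. Mthfd2 and Slc7a5 were the 2 members with an unadjusted p under 0.05 on average, against 8.17% of all genes. It passed with the replicate block and the length and GC trend removed together (-0.29, limma adjusted p = 0.00509, 9.99% of all genes), though not with either alone. The group accounted for 88.0% of the variance of Mthfd2, the replicate number for 0.893%. Psat1, an enzyme of serine synthesis, was 2314, 2411 and 2395 in control and 1937, 1989 and 2239 in control_TNF, without overlap (-0.21, SE 0.16), as held in that direction for 4.11% of all genes (4.6% in the other). Slc7a5, the light chain of an amino acid transporter, was 1047, 1015 and 1270.3 in SoxC_KO and 874, 843 and 626 in SoxC_KO_TNF, also without overlap (-0.52, SE 0.24, limma adjusted p = 0.691). Gm20388, a gene on the opposite strand with a mean of 4663 against 893 for Slc7a5, covers the whole gene, and the sources used here do not say whether counting used strand, so the level of Slc7a5 is uncertain. Phgdh, the first enzyme of serine synthesis, had a difference of 0.35 in control cells (SE 0.22). Asns, asparagine synthetase, had differences of -0.24 and -0.14 (SE 0.18 each).

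**Figure D1:**
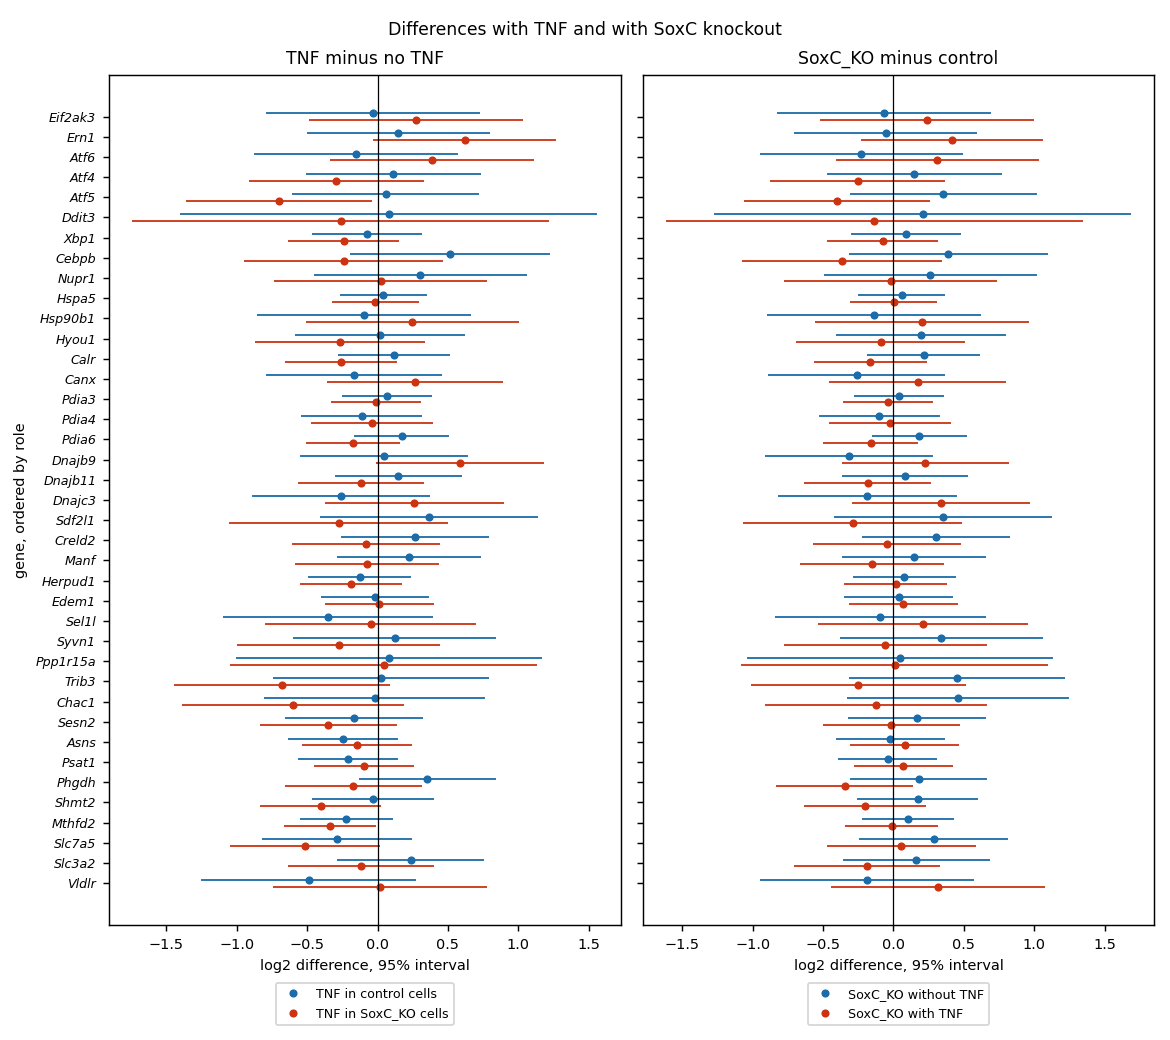
Log2 differences with TNF (left) and with SoxC knockout (right) for the 39 genes, ordered by role, with 95% intervals of the limma fit as bars and points as estimates, blue for control cells or no TNF and red for knockout cells or TNF. The intervals of Atf5 and Mthfd2 with TNF in knockout cells are the ones that leave 0 out, and none of the 39 passes adjustment over all genes.

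The second question was whether loss of the SOXC genes moved them. No member passed without TNF or with it, and neither did any other gene (0% in both), while 0.97% and 1.28% of all genes, and no member, had an unadjusted p under 0.05. Among those not called were the SOXC genes themselves, with median differences of -1.29 without TNF and -1.30 with it. Differences of that size thus went uncalled in this fit. The median difference of the 39 was 0.10 without TNF and -0.03 with TNF, beside -0.01 and 0.00 over all genes. Chac1, an enzyme that degrades glutathione, had 211, 221 and 339.5 normalized counts in the control libraries, against 326, 252 and 503 in those of SoxC_KO. The groups overlapped, although SoxC_KO was higher for each number (log2 difference 0.46, SE 0.36, limma adjusted p = 0.999). Trib3 was 383, 339.9 and 584 in control, against the SoxC_KO values given above (0.45, SE 0.35). Creld2, a secreted folding factor, differed by 0.30 (SE 0.24). On the negative side, Dnajb9 differed by -0.31, the lectin chaperone Canx by -0.26 and Atf6 by -0.23. Without SoxC_KO replicate 3 these were 0.04, 0.09 and 0.03. Mthfd2 was the 1 gene of the 39 whose groups did not overlap (0.10, SE 0.15), SoxC_KO being higher, as for 2.39% of all genes (1.98% lower). With TNF none of the 39 was without overlap, against 2.82% of all genes higher and 2.34% lower.

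With TNF, all 3 sensors had positive differences between knockout and control cells, 0.42 for Ern1, 0.31 for Atf6 and 0.24 for Eif2ak3. Without TNF all 3 had negative ones, from -0.23 to -0.05. None passed (limma, lowest adjusted p = 0.997 with TNF and 0.999 without). Of 18139 genes, 8977 were positive with TNF and 9309 negative without. With the length and GC trend removed, Atf6 without TNF was at 0.035. The interaction, which asks whether the response to TNF differed between knockout and control cells, passed for no member and no other gene (0%), and 1.51% of all genes, with no member, had an unadjusted p under 0.05. The members with the smallest p were Atf5 (-0.76, SE 0.43), Cebpb (-0.76, SE 0.46) and Phgdh (-0.53, SE 0.31) on one side and Dnajb9 (0.54, SE 0.38), Atf6 (0.54, SE 0.47) and Dnajc3, a co-chaperone that restrains PERK (0.52, SE 0.41), on the other (limma adjusted p = 0.884 for each). These sizes depended on the setting. Over 24 alternatives they ran from -0.96 to -0.16 for Atf5, -1.05 to -0.053 for Cebpb and -0.68 to -0.071 for Phgdh. The ranges were 0.069 to 0.79 for Dnajb9, 0.040 to 0.82 for Atf6 and -0.041 to 0.71 for Dnajc3. Averaged over both TNF states, knockout minus control lay between -0.08 and 0.18 for all 39 genes, none with an unadjusted p under 0.05, against 0.772% of all genes.

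The third comparison was between the replicate numbers, in a fit with group and number as terms. Of the 39 members, 22 passed the F test over the 3 numbers, where 47.7% of all genes did, so the share lay near the background. The difference of number 3 from the mean of numbers 1 and 2, given as a description, was positive for 11 of them and negative for 11, against 22% and 25.7% of all genes. Below, a gene called higher or lower in number 3 is one that passed this F test, with the sign of that difference. Adjusted p-values given by number are those of the F test, and the SE is that of the difference. By role, all 4 feedback regulators and 4 of 6 transcription factors were called higher in number 3 and none lower, while all 3 sensors and 2 of 4 degradation genes were called lower and none higher. Of the 14 chaperone and folding genes 3 were higher and 5 lower, Vldlr was lower, and none of the 7 supply genes passed. The median share of a member's variance was 55.5% for the number and 16.7% for the group, against 47.1% and 18.1% over all genes.

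**Figure D2:**
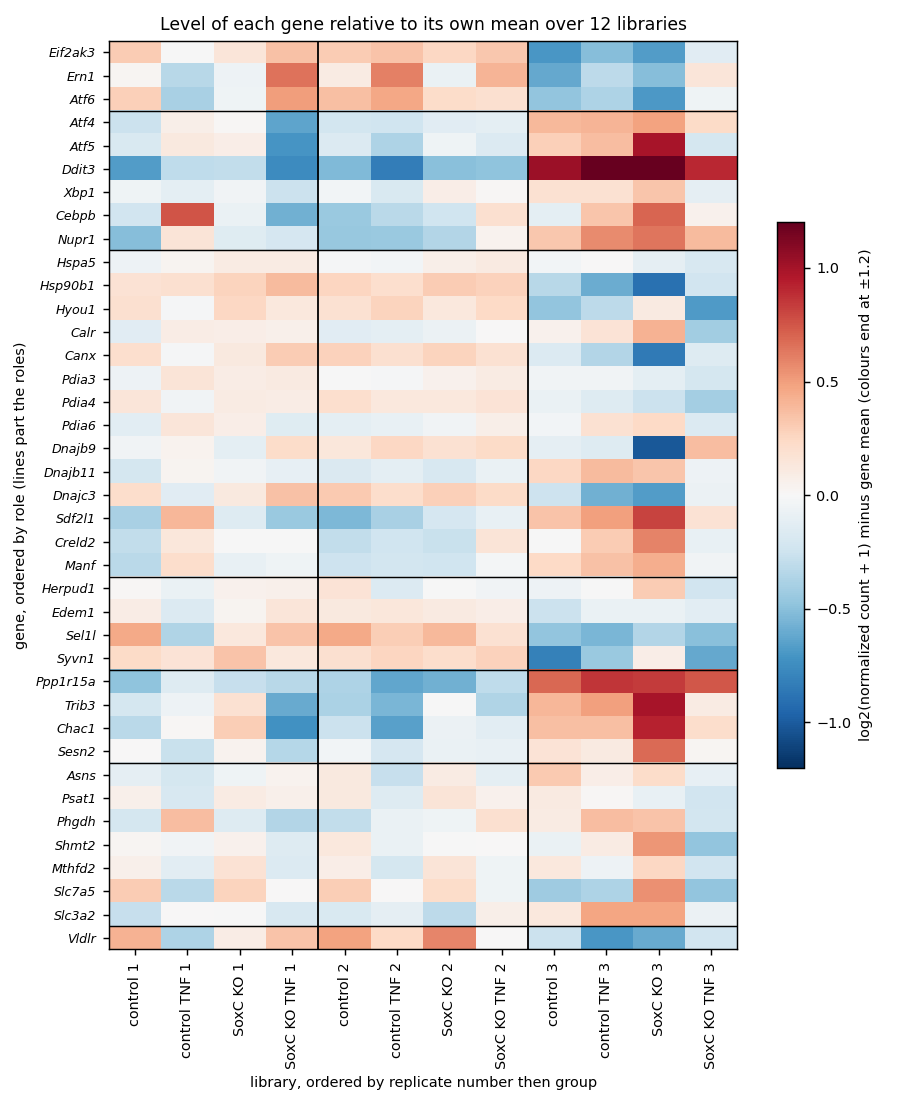
Heat map of the 39 genes by role (rows) in the 12 libraries ordered by replicate number then group (columns), coloured by log2(normalized count + 1) minus the gene's mean. The last 4 columns, numbered 3, are red for Ddit3 and Ppp1r15a in every group and blue for Hsp90b1 and Eif2ak3.

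Ddit3 had the largest difference. Its 4 libraries numbered 3 lay at 4478 to 5662 and the other 8 at 1347 to 1953, without overlap. The log2 difference was 1.64 (SE 0.12, limma adjusted p = 2.23e-05), a 3.11-fold higher level, and it ran from 1.52 in SoxC_KO_TNF to 1.76 in control_TNF. Ppp1r15a (chromosome 7, 45522916 to 45526268) lay at 3283 to 3689 in number 3 and 1323 to 1829 in the others, also without overlap (1.17, SE 0.11, limma adjusted p = 4.73e-05). Nupr1, a stress-induced chromatin protein, and Atf4 were the other 2 members with all libraries numbered 3 above all others, as 13.8% of all genes were. Their log2 differences were 0.72 (SE 0.12) and 0.57 (SE 0.11). Trib3 (0.74, SE 0.12) and Chac1 (0.69, SE 0.16) were highest in number 3 within each of the 4 groups, as 9 members were in all and 23% of all genes. Sdf2l1, a component of an ER chaperone complex, was so too (0.68, SE 0.15). Atf5 was higher by 0.54 and was highest in number 3 in 3 of 4 groups. Ddit3 shares 68 bases with Mars on the opposite strand, which had a mean of 1853, so some of its reads may not be separable. Larger overlaps with expressed genes touch Manf, Hsp90b1, Cebpb and Atf5, besides Slc7a5. Syvn1 shares 83 bases with Mrpl49 (mean 642) and Eif2ak3 shares 2449 with Gm43292 (mean 75.5), both on the opposite strand.

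On the lower side, Hsp90b1 (chromosome 10, 86690209 to 86705509), the ER form of HSP90, was 22209, 18547, 15040.3 and 23861 in the libraries numbered 3 and 31557 to 36321 in the other 8. The libraries numbered 3 lay below all others (-0.77, SE 0.11, limma adjusted p = 0.000601). Eif2ak3 was 589.7, 668, 600.4 and 869.5 in number 3 and 953 to 1220.4 elsewhere (-0.76, SE 0.11, limma adjusted p = 0.000602). Canx, Pdia4 and Syvn1 likewise lay below all other libraries, as did 13.7% of all genes. Number 3 was lowest within each of the 4 groups for 9 members and 24.7% of all genes. Sel1l, the scaffold of the Syvn1 ligase, was lower by -0.70 and Vldlr by -0.67. The sensors Atf6 and Ern1 were lower by -0.59 and -0.48. SoxC_KO replicate 3 carried the lowest Hsp90b1 and Canx and the highest Ddit3, Trib3 and Chac1 of all 12 libraries.

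Several central genes did not pass for the replicate number with the values as deposited. Hspa5 differed by -0.12 (SE 0.09, limma adjusted p = 0.543) and Herpud1 by 0.00 (SE 0.11), Xbp1 by 0.22 (SE 0.10, adjusted p = 0.147), Cebpb by 0.36 (SE 0.20, adjusted p = 0.279) and Asns by 0.19 (SE 0.10, adjusted p = 0.296). Calr differed by 0.08. Hspa5 and Hsp90b1 both hold the ER stress element, and Asns and Trib3 both hold the ATF4 type element; whether the differences by number differ within these pairs was not tested. Without the 2 libraries with liver transcripts 14 of the 39 passed, 7 higher and 7 lower (38% of all genes), among them Ddit3 (1.55), Ppp1r15a (1.12), Trib3 (0.67), Hsp90b1 (-0.77) and Eif2ak3 (-0.74). Without control replicate 3 the count was also 14. Calls over all genes moved too, from 6661 to 9201 over the 20 alternative settings, against 8645 in the main fit.

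**Figure D3:**
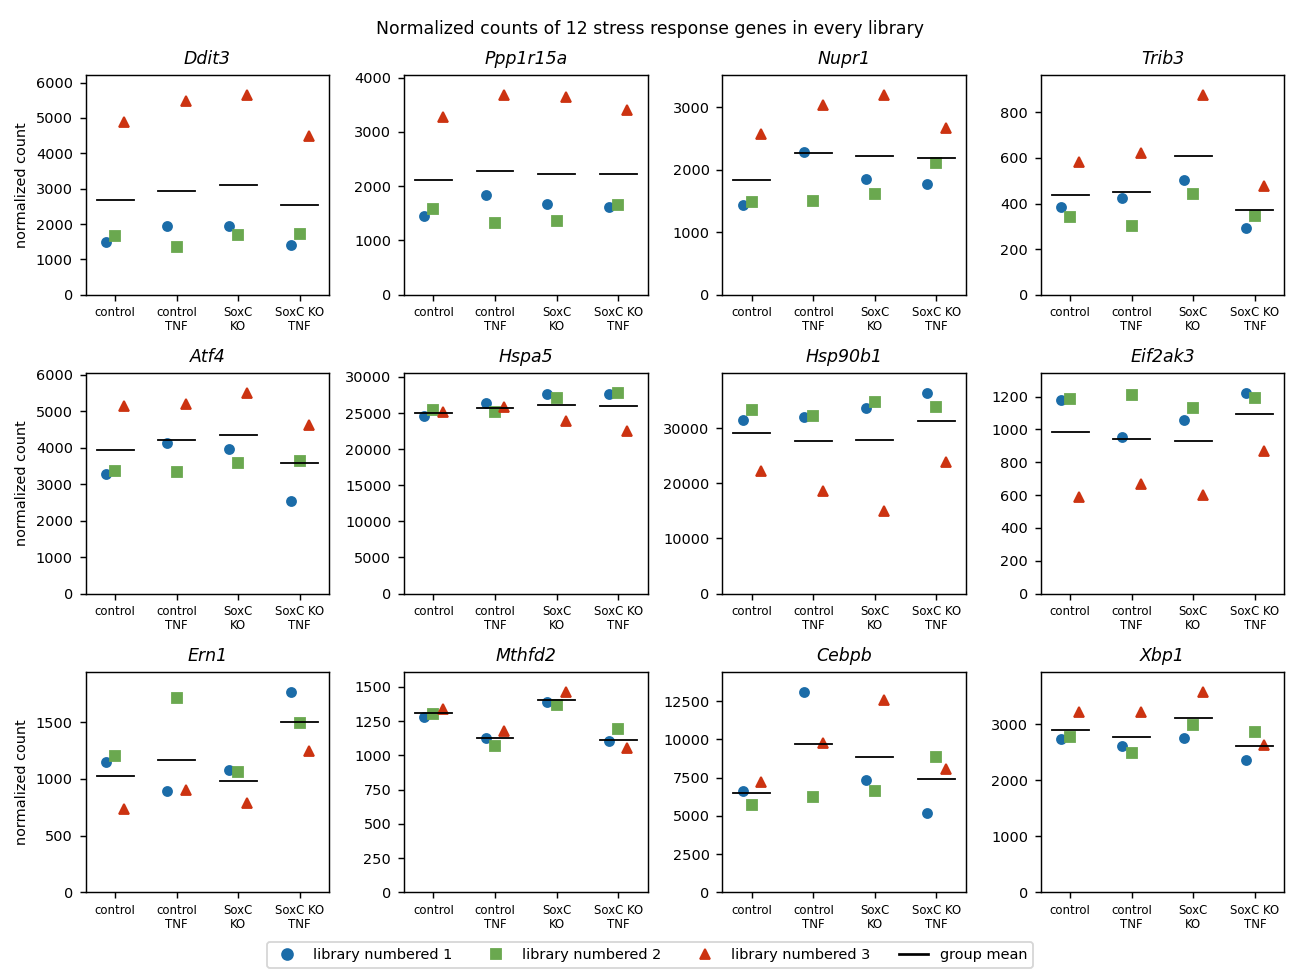
Normalized counts of 12 of the genes in each library, by group along the x axis, with blue circles, green squares and red triangles for libraries numbered 1, 2 and 3 and a bar for the group mean (linear axes from 0). Ddit3 in number 3 sits at 4478 to 5662 against 1347 to 1953 in the rest, Hspa5 stays between 22542 and 27728, and Mthfd2 is lower in both groups with TNF.

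Transcript length moved with the replicate number. Over the 39 genes the log2 difference of number 3 had Pearson's r of -0.76 and Spearman's rho of -0.73 with log2 transcript length, and r of 0.45 with GC content. Over 18112 genes with a known transcript these were -0.44, -0.49 and 0.42. They are correlations across genes measured in the same 12 libraries, given as a description. With genes split at the quartiles of transcript length, the median difference of all genes went from 0.44 in the shortest class to 0.15, -0.15 and -0.71 in the longest, and that of the members from 0.61 (6 genes) to 0.19 (19 genes), -0.57 (7 genes) and -0.59 (7 genes). The sensor transcripts are long, 4513 bases for Eif2ak3, 6946 for Ern1 and 7246 for Atf6, and that of Ddit3 is short, 969 bases. Ppp1r15a, with 2809 bases, lay well above the 0.15 of its length class, and Hsp90b1, with 3222, well below the -0.15 of its own. With genes split at the quartiles of GC content, Hsp90b1 (42.1%) was in the lowest class, where the median of all genes was -0.59. Ppp1r15a (55.7%) was in the highest, with a median of 0.32.

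**Figure D4:**
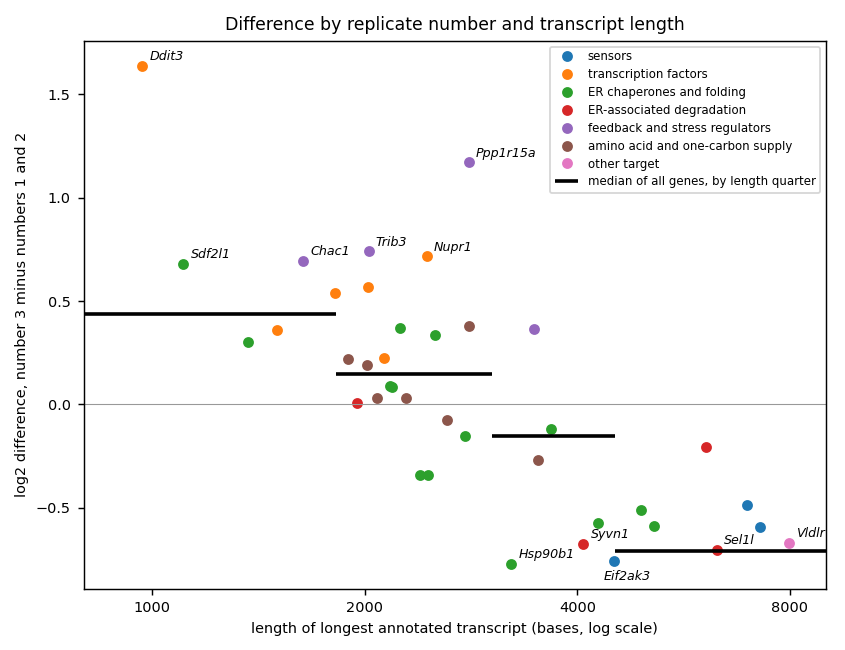
Log2 difference of libraries numbered 3 minus numbers 1 and 2 (y axis) against the length of the longest annotated transcript in bases (x axis, log scale), points coloured by role and black bars for the median of all genes in each length class. Members run downward with length, from Ddit3 at 1.64 to Vldlr at -0.67, as the bars do from 0.44 to -0.71, and Ppp1r15a and Hsp90b1 lie far from their bars.

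After each library's trend on length and GC content was subtracted, a step added after the data were seen, 15 of the 39 passed, 7 higher and 8 lower, against 44.2% of all genes. Ddit3 (1.57, SE 0.10), Ppp1r15a (0.88, SE 0.08), Nupr1 (0.59, SE 0.10) and Trib3 (0.33, SE 0.08) were still called higher. Eif2ak3 (-0.60, SE 0.09), Syvn1 (-0.75, SE 0.07), Hsp90b1 (-0.35, SE 0.06), Hyou1 (-0.31, SE 0.09) and Pdia4 (-0.31, SE 0.07) were still called lower. Herpud1 (-0.35, SE 0.07, limma adjusted p = 0.00556), Slc7a5 (-0.46, SE 0.10) and Shmt2 (-0.34, SE 0.08), which had not passed before, were called lower. Edem1, which had not passed at -0.21 as deposited, was called higher (0.57, SE 0.09). Herpud1 and Shmt2 had been at 0.00 and 0.03 as deposited, so their signs turned too. Atf6 and Vldlr turned from called lower to called higher (0.34 and 0.44, both passing). Ern1, Canx, Dnajc3 and Sel1l also changed sign, to values between 0.02 and 0.18 that did not pass. Atf4 was then at 0.17, Chac1 at 0.22 and Atf5 at 0.09, none passing. Of the 3 sensors, Eif2ak3 was the 1 still called lower.

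**Figure D5:**
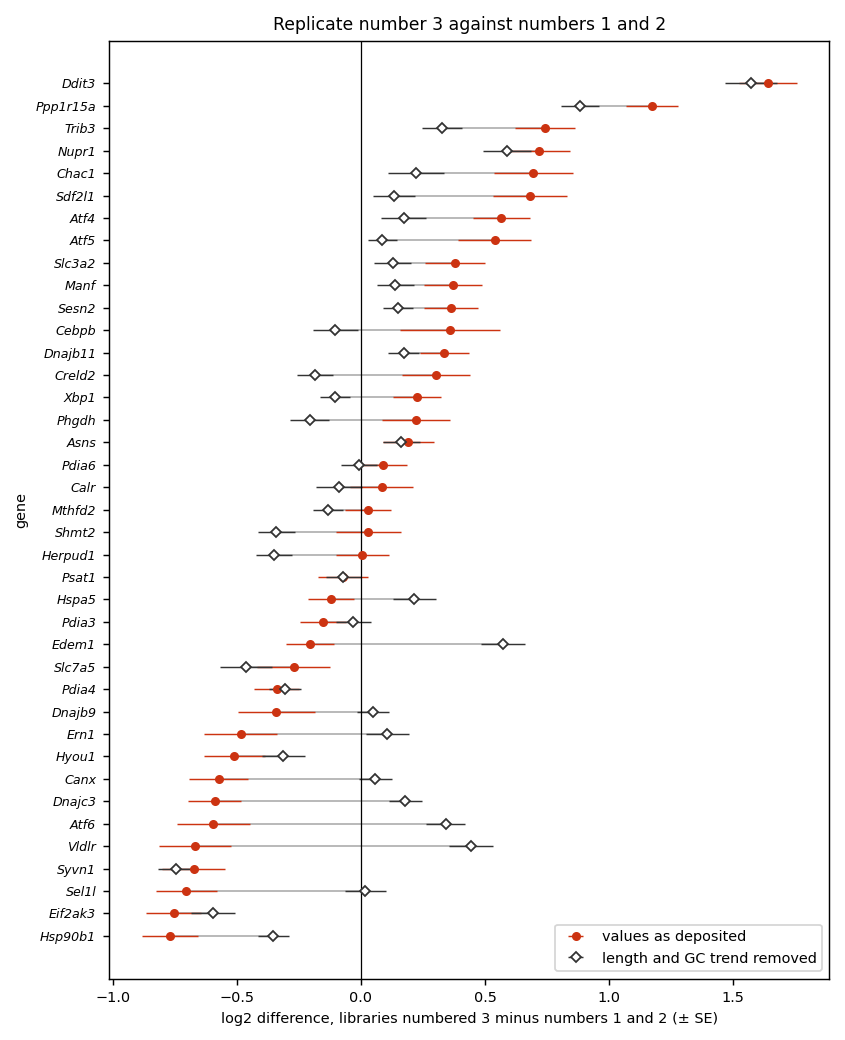
Log2 difference of libraries numbered 3 minus numbers 1 and 2 for each of the 39 genes, sorted, with red circles for the values as deposited and open diamonds for values after the length and GC trend was subtracted (bars are ± SE). Ddit3 moves from 1.64 to 1.57 and Ppp1r15a from 1.17 to 0.88, while Vldlr crosses from -0.67 to 0.44 and Atf6 from -0.59 to 0.34.

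Markers of other cell types also differed by number, beside the 22% of all genes called higher in number 3 and 25.7% called lower. The summed level of 10 macrophage markers was 3448 to 4008 in the libraries numbered 3 and 1396 to 2080 in the others, with 5 of 7 tested called higher (Lyz2, Cd14 and Csf1r by the smallest p), while Ptprc, the defining leukocyte gene, was at 19.1 or less in every library. The sum of 8 endothelial markers was 481 to 547 against 362 to 430, with 1 of 7 called higher (Egfl7), a share below that of all genes. The 15 fibroblast markers summed to 302982 to 583737 in number 3 and 595631 to 839558 in the others, with 9 called lower and none higher, among them Prg4, Col3a1 and Fn1. Their part in the differences of the 39 genes was not tested, and in bulk RNA fewer cells of a type and less RNA per cell cannot be told apart. The marker values and calls are as deposited, with no length and GC correction.

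The wider pathways were read from lists kept apart from the 39 genes. Of 43 other genes of ER stress, of 42 others of the integrated stress response, of 20 cytosolic heat shock genes and of 9 tested genes of mitochondrial stress, none was called with TNF or with knockout. Their median differences with TNF in control cells were 0.03, -0.10, 0.05 and -0.02. By number, where 22% of all genes were called higher in number 3 and 25.7% lower, 11 of the 43 other ER stress genes were higher and 14 lower (median -0.09), shares near that background. The lower ones included Creb3l2, Sec24d and Uggt1, of which Sec24d is a coat protein of ER exit and Uggt1 a folding checkpoint enzyme. Of the 42 other integrated stress response genes 12 were higher and 13 lower (median -0.04), again near it. Atf3, induced by ATF4, was 736, 804, 799 and 743 in number 3 and 263 to 366 in the other libraries, without overlap (1.24, SE 0.11, limma adjusted p = 4.73e-05). The amino acid transporter gene Slc38a2 (-1.41) and the mitochondrial folate enzyme gene Aldh1l2 (-1.42) were lower. These values are as deposited, with no length and GC correction. Of the 20 heat shock genes 7 were higher and 4 lower, and of the 9 mitochondrial stress genes 6 were higher and none lower, led by Clpp (1.19), a subunit of a matrix protease.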

How the data were processed

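Poly(A) RNA of 12 libraries was sequenced in pairs on a NovaSeq, per the labels' protocols. The submitters' processing notes name mm10 and DESeq. For the aligner, annotation, strand setting and the stretch of each gene that Cre removes, nothing is given in the sources used here. The values deposited by the authors are log2 normalized counts, and an entry of 0 stood for 1 normalized read or fewer. They were raised to linear counts and analysed as log2(count + 1), so the changes of low genes are understated. Whole reads could not be recovered from them (38.2 to 44.3% of low values per library were whole multiples of the commonest one, within 0.01 of a step), so no count model was run and depth is a rough estimate.

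limma 3.58.1 (R 4.3.3), with an intensity trend and Benjamini-Hochberg adjustment over 18139 genes at a threshold of 0.05, compared the 4 groups in 1 fit without a block. Transcript length and GC content were those of a gene's longest GENCODE transcript on mm10. Replicate numbers were compared by an F test with group and number as terms. The fits were also run on simulated data whose noise had no part shared by a replicate number. The planted changes exceeded the differences of the members with TNF, so these runs do not bear on power for such differences. Figures were drawn with matplotlib 3.10.9. Same-numbered libraries deviated together (r of 0.103 to 0.715 over genes in both TNF comparisons and 0.457 to 0.707 for knockout without TNF). These comparisons thus allow pairing, which only the fits with the replicate block used. The main fit ignores it, so its SEs hold the spread between numbers. With TNF the lowest knockout r was 0.0537, under the cutoff of 0.1. No 2 libraries were identical.

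The 39 members, the other gene lists and the tests were chosen with earlier results of these data known. Genes named per comparison were those that passed, else, among members with a mean of 50 or more, the 3 of smallest p per direction. For the replicate number they were the 10 with the smallest p and the 5 largest differences each way. Eif2ak3, Ern1, Atf6, Atf4, Ddit3, Xbp1, Cebpb, Hspa5, Herpud1, Ppp1r15a, Trib3 and Asns were always named. From other lists up to 3 called genes were named. Any other gene was chosen after its values were seen. Alternatives were the replicate block, other pseudocounts (0.5 and 5), filters and scalings, and leaving out libraries. The length and GC correction, and the block combined with it or without the libraries with liver transcripts, were chosen after seeing the data.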

Additional observations from a re-analysis of the deposited data

How the results depend on the processing

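With the replicate number as a block, 1 of the 39 genes (Trib3) passed for TNF in knockout cells, and the block changed no other call of a member. Together with the length and GC trend removed it gave 2 for TNF in knockout cells, Ern1 and Mthfd2, and 6 for TNF averaged over both genotypes, higher for Ern1 and Cebpb and lower for Atf5, Asns, Mthfd2 and Vldlr. The length and GC correction without the block gave 1 for the average, Ern1 (0.46, limma adjusted p = 0.0311). The number of members that differed by replicate number was 14 without the libraries with liver transcripts and ran from 14 to 25 when each library was left out, and counts for TNF and knockout were 0 in each of those. Calls by number over all genes ran from 6661 to 9201 over the 20 alternative settings, so the background moved as well. Over all genes, calls for TNF were 310 in control cells, 505 in knockout cells and 941 on average with the block, 267, 186 and 653 without the libraries numbered 3, 15, 10 and 92 without those with liver transcripts, 162, 148 and 542 with the block and without those, 165, 155 and 554 with the length and GC trend removed, and 795, 998 and 1809 with both. Fitted on only the groups compared they were 0 and 3, without a filter 35 in control cells, and leaving out 1 library 5 to 84, 14 to 55 and 118 to 253.

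Among the genes named by the rule, signs turned for these, and for Herpud1, Atf6 and Vldlr the turned difference by number passed. Edem1 and Shmt2, outside that rule, also turned by number with the length and GC trend removed, and passed. With the length and GC trend removed, knockout without TNF was 0.040 for Canx and 0.035 for Atf6, knockout with TNF 0.034 for Cebpb and the interaction -0.041 for Dnajc3, each the same with the block. The difference of number 3 then was 0.11 for Ern1, 0.34 for Atf6, -0.10 for Xbp1, -0.10 for Cebpb, 0.22 for Hspa5, -0.35 for Herpud1, -0.21 for Phgdh, -0.0081 for Pdia6, -0.13 for Mthfd2, 0.44 for Vldlr, 0.048 for Dnajb9, -0.19 for Creld2, 0.058 for Canx, 0.18 for Dnajc3 and 0.018 for Sel1l. With quantile normalization it was -0.029 for Pdia6. Without the libraries numbered 3 the average knockout difference was 0.014 for Pdia4 and 0.014 for Dnajb11. Leaving out 1 library, these ran from -0.12 to 0.027 for Pdia4 and -0.13 to 0.023 for Dnajb11, number 3 for Herpud1 from -0.086 to 0.083, and knockout without TNF from -0.56 to 0.036 for Dnajb9, -0.47 to 0.089 for Canx and -0.49 to 0.032 for Atf6. The cause was not tested. With 3 libraries a group, the SE of 0.68 for Ddit3 without the block limits what could be detected in that gene. The fit for the replicate number itself has no block and none without number 3.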
